A study of Homo sapiens with 21 samples.

Results

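The effect of 8:2 FTOH on the transcriptome of neuron-like human cells was measured by comparing 3 libraries from exposed SH-SY5Y cells with 3 libraries from control cells, which are 6 of the 21 libraries of the series. Libraries were taken by the treatment in their labels, and of 62656 genes in the count table the 24879 with enough counts were tested. SH-SY5Y is a human neuroblastoma line, here wild type and taken through an 11-day differentiation before exposure, and it is 1 tumour line rather than neurons from several donors. 8:2 FTOH, the 8:2 fluorotelomer alcohol, was given at 30 µM for 24 h, a level the series calls sub-toxic, in solutions with 1% methanol. The methanol content of the control medium is not given in the sources used here. Groups exposed to 8:2 FTS, PFOA or PFDA at the same dose and for the same time served to show where 8:2 FTOH differed from a related compound. The study asked about neurotoxic effects of per- and polyfluoroalkyl substances (PFAS).

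Fluorotelomer alcohols carry a fully fluorinated carbon chain joined through a short unfluorinated spacer to a hydroxyl group, and cells with alcohol and aldehyde dehydrogenases can oxidise them towards fluorinated carboxylic acids such as PFOA. Cells that sense amino acid shortage, unfolded protein or other stress translate the transcription factor ATF4, which raises genes for amino acid uptake and synthesis, and electrophiles release NRF2, which raises genes for glutathione and redox balance. SLC7A11, the cystine-glutamate exchanger that supplies cysteine for glutathione, is a target of both. FOS and EGR1 are immediate early genes, transcribed within minutes of calcium or growth factor signals in neurons and neuroblastoma cells.

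The libraries of the 2 groups differed in depth and in ribosomal RNA content. Control libraries held 22179910 to 24905803 counts, and 8:2 FTOH libraries 12316603, 25330837 and 7680024, the last being the lowest of the series. The 2 mitochondrial rRNA genes, which the ribosome depletion of the library kit should remove, took 1.96% of the counts in control library 3 and 2.90% in 8:2 FTOH library 3, against 0.00193 to 0.243% in the other 19. On a multidimensional scaling of all 21 libraries, 8:2 FTOH library 3 lay at 2.24 on the first axis and the remaining libraries between -0.38 and 0.44. These 2 libraries are absent from the authors' normalized table, so values without both are given for the 8 genes past the threshold and for the gene lists. For other results such values are given only where stated. For the rest, the part of these 2 libraries is not reported. STMN2, a growth protein that marks neurons, was abundant in both groups, at 1189 ± 91.01 CPM (TMM-scaled CPM, the counts of a gene relative to the scaled library total, SD, n = 3) in controls and 1021 ± 80.3 with 8:2 FTOH. Of 15 Schwann cell and glial markers, FOXD3, CDH19, OLIG1, OLIG2 and FABP7 were at 0 counts in all 6 libraries, and the 15 summed to 30.5 to 34.8 CPM in controls and 33.1 to 35.5 CPM with 8:2 FTOH. Of 24 mesenchymal markers, the 21 tested summed to 689 to 756 CPM in controls and 685 to 748 CPM with 8:2 FTOH. MKI67, a marker of dividing cells, was at 876, 874 and 819 CPM in controls and 752, 704 and 692 CPM with 8:2 FTOH. Its log2 fold change was -0.26. TOP2A, CCNB1, CDK1 and AURKB, also markers of dividing cells, were at -0.15, -0.13, -0.08 and -0.03, each with overlapping groups. In bulk RNA, fewer cells of a type and less RNA per cell cannot be told apart.

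With 8:2 FTOH, 1 gene rose and 7 fell. SLC7A11 rose 2.79-fold, and PLK2, CDH11, FOS, TCEAL5, CHORDC1, RNVU1-25 and ATP5PF fell by 1.33 to 2.79-fold. These 8 genes, 0.0322% of those tested (0.00402% higher and 0.0281% lower), passed an adjusted p of 0.05 in edgeR's quasi-likelihood test with Benjamini-Hochberg adjustment. At an unadjusted p under 0.05, 3.55% of genes were higher and 4.28% lower. Scaling by library size alone also gave 8 genes, of which 4 were higher and 4 lower.

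**Figure D1:**
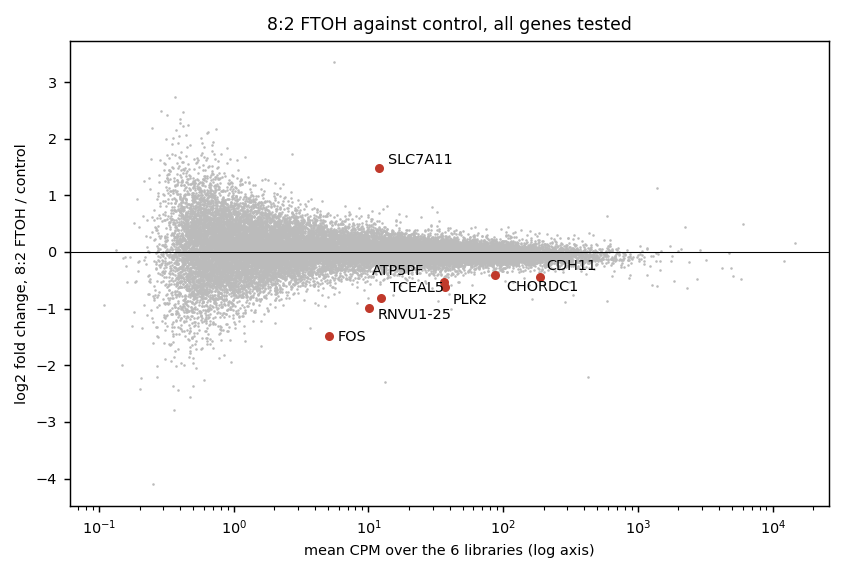
Log2 fold change of 8:2 FTOH over control (vertical axis) against mean CPM of the 6 libraries on a log axis, 1 point per tested gene, with the 8 genes past an adjusted p of 0.05 in red. Of the red points SLC7A11 alone lies above 0, at 1.48, and FOS lies lowest at -1.48. Over all tested genes the values run from -4.10 to 3.36.

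SLC7A11 (ENSG00000151012, chr4:138164097-138242349, minus strand, hg38) imports cystine in exchange for glutamate. Its level was 4.31, 6.66 and 7.90 CPM in control libraries 1 to 3 and 15.1, 18.9 and 18.6 CPM in 8:2 FTOH libraries 1 to 3. Every exposed library lay above every control library, with a gap wider than the spread within either group. The log2 fold change was 1.48 (SE 0.16, 95% interval 1.15 to 1.81, edgeR adjusted p = 3.21e-07) and 1.64 without the 2 libraries that stood apart. It was the 1 gene that passed with each of the 6 libraries left out in turn. Counting ignored strand, and the antisense gene SLC7A11-AS1 overlaps it, with 0.11 times as many counts.

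The genes that fell included FOS (ENSG00000170345, chr14:75278826-75282230, plus strand), a subunit of the transcription factor AP-1. FOS was at 8.57, 7.08 and 6.85 CPM in controls and at 3.29, 2.53 and 2.20 CPM with 8:2 FTOH, with no overlap, a log2 fold change of -1.48 (SE 0.28, edgeR adjusted p = 0.02). PLK2 (ENSG00000145632, chr5:58453982-58460139, minus strand), a polo-like kinase induced by neuronal activity, was at 45.04, 48.6 and 40.97 CPM in controls. In the exposed libraries PLK2 was at 29.4, 29.2 and 28.7 CPM, nearly the same in all 3, and its log2 fold change was -0.62 (SE 0.11, edgeR adjusted p = 0.02). The groups did not overlap for either gene.

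CDH11 (ENSG00000140937, chr16:64943753-65126112, minus strand) encodes a type II cadherin that joins cells to each other. It was at 238, 208 and 198 CPM in controls and at 169, 149 and 154 CPM with 8:2 FTOH, a log2 fold change of -0.45 (SE 0.08, edgeR adjusted p = 0.02). The X-linked gene TCEAL5 (ENSG00000204065, chrX:103273691-103276750, minus strand), of the family of proteins like transcription elongation factor A, was at 15.4, 16.3 and 15.6 CPM in controls and 9.72, 9.51 and 7.24 CPM with 8:2 FTOH (log2 fold change -0.81, edgeR adjusted p = 0.0258). CHORDC1 (ENSG00000110172, chr11:90200429-90223077, minus strand), an HSP90 co-chaperone, was at 89.3, 100.2 and 108 CPM in controls and 71.1, 74.6 and 78.3 CPM with 8:2 FTOH (log2 fold change -0.41, edgeR adjusted p = 0.0373). For these 3 genes too the lowest control library lay above the highest exposed library.

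ATP5PF (ENSG00000154723, chr21:25716503-25735673, minus strand), a nuclear-encoded subunit of ATP synthase, was at 40.1, 47.3 and 41.6 CPM in controls and 32.2, 27.6 and 29.5 CPM with 8:2 FTOH (log2 fold change -0.54, edgeR adjusted p = 0.0471). It overlaps GABPA and JAM2 in the annotation, so reads from these genes may be shared or lost. RNVU1-25 (ENSG00000274428, chr1:146409903-146410062, plus strand) is one of several near-identical variant U1 spliceosomal RNA genes, so its counts are uncertain. It was at 12.6, 15.4 and 11.8 CPM in controls and 7.66, 5.64 and 7.24 CPM with 8:2 FTOH (log2 fold change -0.98, edgeR adjusted p = 0.0471).

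The 7 falls depended on which libraries were used. PLK2, CDH11, FOS, TCEAL5, RNVU1-25 and ATP5PF each kept an adjusted p under 0.05 in 2 of 6 fits with a library dropped, those without control library 3 and without 8:2 FTOH library 1, and CHORDC1 in 1 of 6, without control library 1. Leaving out control libraries 1, 2 and 3 gave 2, 1 and 32 genes, and leaving out 8:2 FTOH libraries 1, 2 and 3 gave 25, 1 and 1. Without both control library 3 and 8:2 FTOH library 3, 10 genes passed, 5 in each direction, and SLC7A11, PLK2 and CDH11 were the 3 of the 8 among them. In that fit the log2 fold changes were -0.68 for PLK2, -0.49 for CDH11, -1.45 for FOS, -0.72 for TCEAL5, -0.38 for CHORDC1, -1.10 for RNVU1-25 and -0.56 for ATP5PF.

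**Figure D2:**
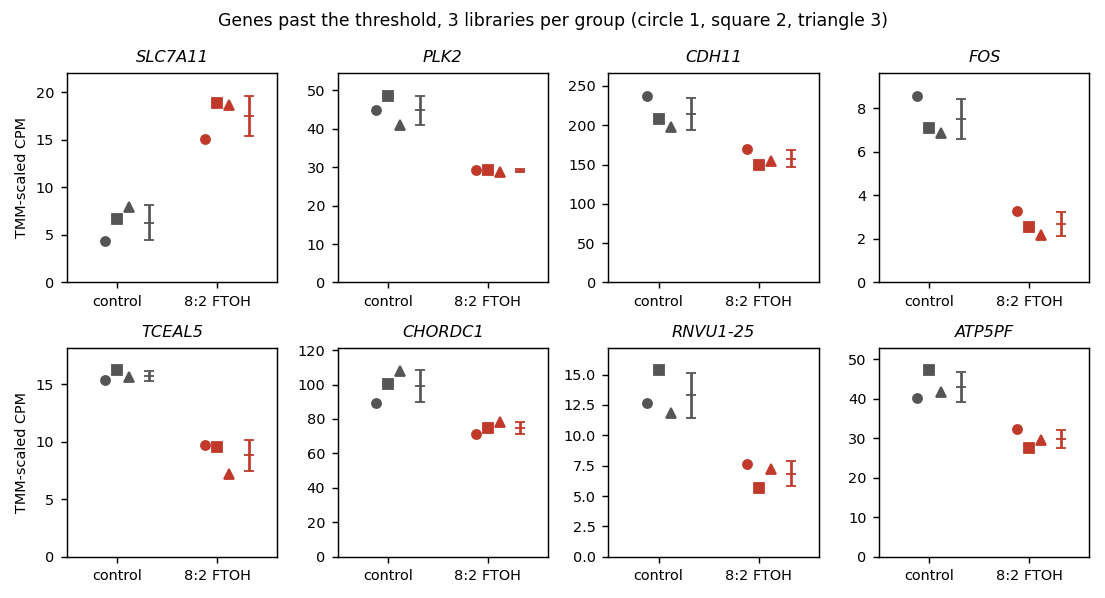
TMM-scaled CPM of the 8 genes past the threshold in control (grey) and 8:2 FTOH (red) libraries, with library 1 as a circle, 2 as a square and 3 as a triangle, and the mean ± SD of 3 at the right of each group. In all 8 panels the 2 groups are apart, with SLC7A11 higher and the other 7 lower after exposure.

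The promoters of FOS, PLK2 and TCEAL5 are shown because these genes fell together and each holds the letters TGACGT, the core of the cAMP response element, in the window before its start. Of the 8 genes, 5 have an entry in the RefSeq promoter table (GRCh38.p14), and the 250 bases before the RefSeq start were searched on both strands. The bases are 5′ to 3′ on the gene's strand, with matches in capitals, and stop before the start of the gene in the count table.
FOS, chr14:75278578-75278825, plus strand: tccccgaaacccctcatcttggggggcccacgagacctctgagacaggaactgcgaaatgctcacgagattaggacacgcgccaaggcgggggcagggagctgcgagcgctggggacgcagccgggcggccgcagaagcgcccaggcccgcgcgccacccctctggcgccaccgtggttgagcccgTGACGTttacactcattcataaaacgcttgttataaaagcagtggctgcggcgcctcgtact
PLK2, chr5:58460140-58460336, minus strand: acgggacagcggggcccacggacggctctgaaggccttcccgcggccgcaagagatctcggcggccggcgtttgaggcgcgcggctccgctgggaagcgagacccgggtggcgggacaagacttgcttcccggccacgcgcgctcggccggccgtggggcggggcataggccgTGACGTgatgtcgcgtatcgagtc
TCEAL5, chrX:103276751-103277000, minus strand: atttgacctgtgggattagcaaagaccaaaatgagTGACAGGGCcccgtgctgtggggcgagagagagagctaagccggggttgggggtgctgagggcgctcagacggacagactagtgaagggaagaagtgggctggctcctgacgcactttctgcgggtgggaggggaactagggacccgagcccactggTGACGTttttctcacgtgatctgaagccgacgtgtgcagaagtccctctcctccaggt
Counted from the RefSeq start, the match lay 64 to 59 bases before it in FOS, 77 to 72 in PLK2 and 58 to 53 in TCEAL5. Counted from the start of the gene in the count table, where the printed bases end, it lay 62 to 57, 24 to 19 and 58 to 53 bases before. TGACGT was found in 7.42% of 27305 promoters of the same length and was added after the sequences had been seen. TCEAL5 also held TGACNNNGC, the antioxidant response element bound by NRF2, at 215 to 207 bases before the RefSeq start, which 11% of promoters hold. The CArG box of serum response factor (1.14% of promoters), the full cAMP response element TGACGTCA, which contains the shorter letters (1.77%), the AP-1 site TGACTCA (4.16%), the EGR site GCGNGGGCG (8.25%) and the ATF4 composite site TGATGNAA (3.19%) were not found in these 5 windows, including those of CHORDC1 and ATP5PF. Bases further upstream were not searched, so a motif absent from these windows may still lie beyond them. A match is a description of letters, not a bound site.

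Genes that ATF4 raises mostly had positive fold changes with 8:2 FTOH, but SLC7A11 was the 1 member that passed. Of 25 tested members of the ATF4 and integrated stress response list, 24 had a positive fold change, 15 had an unadjusted p under 0.05 (3.55% of all genes) and 6 had all exposed libraries above all controls (5.95% of all genes). The median log2 fold change was 0.27, against 0.00 over all genes, 0.18 without control library 1 and 0.39 without the 2 libraries that stood apart. The median difference from the control mean was -0.18, 0.03 and 0.15 in control libraries 1 to 3 and 0.30, 0.29 and 0.10 in exposed libraries 1 to 3, so exposed library 3 lay below control library 3. SLC7A5, which carries large neutral amino acids, was at 89.4, 88.6 and 98.9 CPM in controls and 127, 131 and 115 CPM with 8:2 FTOH (log2 0.43, edgeR adjusted p = 0.0584). SLC3A2, the heavy chain that SLC7A5 and SLC7A11 both need at the membrane, was at 61.5, 63.7 and 65.1 CPM in controls and 76.7, 78.4 and 74.98 CPM with 8:2 FTOH (log2 0.28, adjusted p = 0.224). Neither gene's groups overlapped. ATF4 mRNA itself was at log2 0.07 (95% interval -0.10 to 0.24), and ASNS, asparagine synthetase, at 0.28 (0.01 to 0.56).

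Neighbouring amino acid lists had smaller medians, whose size shifted with single libraries, and that of the synthetases also turned sign. Among 16 amino acid transporters 13 were positive (median 0.10, 1 called, SLC7A11), among 17 enzymes of serine synthesis and one-carbon metabolism 13 (median 0.11, 0 called), and among 20 aminoacyl-tRNA synthetases 12 (median 0.04, 0 called). Members higher at an unadjusted p under 0.05 numbered 5, 6 and 3 in these lists (3.55% of all genes). Those lower numbered 0, 1 and 0 (4.28% of all genes). Without the 2 libraries the medians were 0.16, 0.14 and 0.10. The transporter median was 0.06 without 8:2 FTOH library 1, and the serine median 0.06 without control library 1. For the synthetases it was -0.02 without control library 1, where the sign turned, 0.01 without 8:2 FTOH library 1, 0.08 without control library 3 and 0.06 without 8:2 FTOH library 3. Exposed library 3 of the synthetases, at a median difference from the control mean of -0.01, lay below control libraries 2 and 3, at 0.03 and 0.05. PHGDH, the first enzyme of serine synthesis, was at 98.96, 116 and 121 CPM in controls and 151, 138 and 116 CPM with 8:2 FTOH, and the groups overlapped. NIBAN1, a stress-induced regulator of translation, was outside these lists at 8.39, 9.55 and 11.9 CPM in controls and 16.6, 19.1 and 16.4 CPM with 8:2 FTOH, a log2 difference of 0.82 with edgeR adjusted p = 0.0584.

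NRF2 targets held 16 positive members of 21. At an unadjusted p under 0.05, 6 members were higher and 2 lower (3.55 and 4.28% of all genes). All exposed libraries lay above all controls for 7 members and below them for 1 (5.95 and 6.98% of all genes). The median was 0.12, 0.19 without the 2 libraries, 0.04 without control library 1 and 0.08 without 8:2 FTOH library 2. Its difference from the control mean was -0.11, 0.05 and 0.05 in control libraries 1 to 3 and 0.03, 0.13 and 0.12 in exposed libraries 1 to 3, which overlap. SLC7A11, which is in both lists, was again the 1 member past the threshold. TXNRD1, thioredoxin reductase, was at 124, 139 and 141 CPM in controls and 164, 174 and 159.7 CPM with 8:2 FTOH (log2 0.30, edgeR adjusted p = 0.224). ME1, which makes NADPH, was at log2 0.39 (adjusted p = 0.143) and NQO1, a quinone reductase, at 0.58 (adjusted p = 0.396), both without overlap of the groups. HMOX1, haem oxygenase, was at 0.19 (95% interval -0.52 to 0.90), GCLM, a subunit of the enzyme that starts glutathione synthesis, at 0.12 (-0.15 to 0.40), and GPX4, the lipid peroxide reductase, at -0.27 (-0.47 to -0.08). A list of cystine, glutathione and ferroptosis genes, which also holds SLC7A11 as its 1 called member, had 15 positive and 10 negative of 25 tested. Its median was 0.04, -0.015 without control library 1 and 0.06 without the 2 libraries. At an unadjusted p under 0.05, 4 were higher and 2 lower.

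Genes of the cholesterol pathway mostly had small negative fold changes, from -0.49 to 0.10 on the log2 scale, and 0 passed. Of 25 tested members 24 had a negative fold change (49.3% of all genes), 14 had an unadjusted p under 0.05 (4.28% of all genes) and 12 had all exposed libraries below all controls (6.98% of all genes). The median was -0.23, with 0.01, 0.02 and -0.07 in control libraries 1 to 3, -0.17, -0.26 and -0.31 in exposed libraries 1 to 3, and -0.24 without the 2 libraries. SQLE, squalene epoxidase, was at 231, 249.9 and 236 CPM in controls and 193, 194 and 186 CPM with 8:2 FTOH (log2 -0.32, edgeR adjusted p = 0.086). NSDHL, a later enzyme of sterol synthesis, was at 46.5, 44.4 and 40.6 CPM in controls and 33.3, 35.3 and 23.1 CPM with 8:2 FTOH (log2 -0.49, adjusted p = 0.0797). INSIG1, which holds the SREBP precursor in the endoplasmic reticulum, was at 152, 164 and 166 CPM in controls and 135, 132 and 121 CPM with 8:2 FTOH (log2 -0.31). All 3 genes were without overlap, while SREBF2, which encodes the master regulator, was at log2 -0.01 (95% interval -0.18 to 0.17) with overlapping groups. Fatty acid synthesis and desaturation had a median of -0.09 (-0.10 without the 2 libraries) and 15 of 21 negative members.

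Cytosolic chaperones also had mostly negative fold changes, and CHORDC1 was the 1 that passed. Of 20 heat shock and chaperone genes 16 were negative (49.3% of all genes). At an unadjusted p under 0.05, 12 were lower (4.28% of all genes), and 11 had all exposed libraries below all controls (6.98% of all genes). The median was -0.25 (-0.22 without the 2 libraries). HSPA8, the constitutive HSP70, was at 1294, 1493 and 1202 CPM in controls and 1134, 980.0 and 905 CPM with 8:2 FTOH (log2 -0.40, edgeR adjusted p = 0.144). HSPA1B, an inducible HSP70, was at 26.8, 27.9 and 27.6 CPM in controls and 20.4, 18.6 and 19.3 CPM with 8:2 FTOH (log2 -0.50, adjusted p = 0.109), though it shares near-identical sequence with HSPA1A and its counts are uncertain. AHSA1, which activates the HSP90 ATPase, was at log2 -0.33 (adjusted p = 0.109). HSF1, the factor that drives heat shock genes, was at 0.14 (95% interval -0.07 to 0.34).

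Genes of the endoplasmic reticulum were mixed, with more of them negative than positive. Of 25 genes of its chaperones and of the unfolded protein response, 17 were negative and 8 positive, with a median of -0.12 and 0 called. Of these 25, 8 lay wholly below the controls (6.98% of all genes) and 2 wholly above (5.95% of all genes). At an unadjusted p under 0.05, 9 were lower (4.28% of all genes) and 1 was higher (3.55% of all genes). The median was -0.18 without 8:2 FTOH library 1 and -0.10 without the 2 libraries. MANF, a secreted protein of the reticulum with neurotrophic activity, was at 78.3, 74.1 and 59.1 CPM in controls and 53.8, 48.1 and 37.7 CPM with 8:2 FTOH (log2 -0.59, edgeR adjusted p = 0.0584). HSPA5, the main HSP70 of the reticulum, was at log2 -0.35 (95% interval -0.68 to -0.01) and PDIA3, a disulfide isomerase, at -0.34 (-0.51 to -0.18), both without overlap. ERN1 and EIF2AK3, which encode the sensors IRE1 and PERK and were chosen after their values were seen, were at 0.28 (0.08 to 0.49) and 0.12 (-0.06 to 0.29), with every exposed library above every control.

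**Figure D3:**
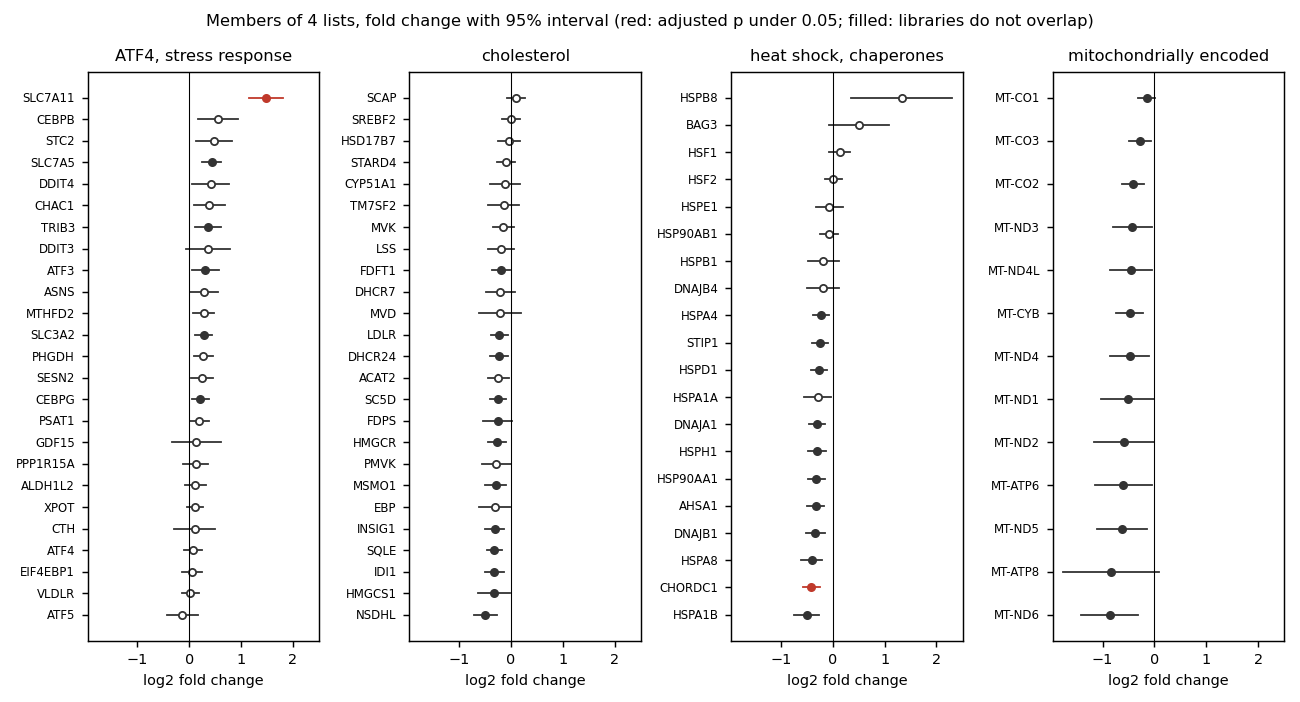
Log2 fold change with its 95% interval for every tested member of 4 lists, ordered by fold change, with genes past an adjusted p of 0.05 in red and filled points where the 3 exposed and 3 control libraries do not overlap. Most points of the ATF4 panel lie right of 0, and most of the cholesterol, chaperone and mitochondrially encoded panels lie left of it.

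All 13 protein-coding genes of the mitochondrial genome were lower in every 8:2 FTOH library than in any control library. This held for 6.98% of all genes, and 0 of the 13 passed. Their median log2 fold change was -0.48, with -0.43, -0.44 and -0.59 in exposed libraries 1 to 3 and -0.40 without the 2 libraries. At an unadjusted p under 0.05, 11 of the 13 were lower (4.28% of all genes). Together these genes took 4.11, 4.34 and 4.35% of the counts in controls and 3.51, 3.50 and 3.19% with 8:2 FTOH. MT-CO2, a cytochrome c oxidase subunit, was at 5276, 6117 and 6099.6 CPM in controls and 4688, 4491 and 3886 CPM with 8:2 FTOH (log2 -0.42, edgeR adjusted p = 0.144). MT-CYB, of complex III, was at 3089.8, 3258 and 3227 CPM in controls and 2417, 2338 and 2124 CPM with 8:2 FTOH (log2 -0.48, adjusted p = 0.223), and MT-ND6, of complex I, at 711, 788 and 773 CPM in controls and 426, 402 and 424 CPM with 8:2 FTOH (log2 -0.86, adjusted p = 0.381). The 13 genes are cut from a few long transcripts of 1 genome, so they are not independent of each other. A list of 38 nuclear genes of the respiratory chain and ATP synthase, which does not hold ATP5PF, had 0 called and a median of -0.05. That median was 0.04 without the 2 libraries, 0.00 without control library 3 and 0.01 without 8:2 FTOH library 3, and it was -0.08, -0.01 and -0.10 without control library 1, control library 2 and 8:2 FTOH library 1.

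Immediate early genes were mixed too. Of 20 tested, 15 were negative (49.3% of all genes), the median was -0.10, and FOS was the 1 that passed. Of these 20, 5 lay wholly below the controls (6.98% of all genes) and 1 wholly above (5.95% of all genes). The median was -0.16 without control library 3, -0.16 and -0.03 without 8:2 FTOH libraries 2 and 3, and -0.15 without the 2 libraries. EGR1, a zinc finger factor induced by ERK signalling, was at 45.7, 33.01 and 28.7 CPM in controls and 21.7, 21.5 and 26.8 CPM with 8:2 FTOH (log2 -0.63, edgeR adjusted p = 0.092, and log2 -0.86 without the 2 libraries). FOSB was low throughout, at 1.11, 1.01 and 1.71 CPM in controls and 0.412, 0.316 and 0.905 CPM with 8:2 FTOH (log2 -1.39, adjusted p = 0.521). NR4A1, an orphan nuclear receptor that is also induced early, was at log2 0.40 (95% interval 0.10 to 0.71), with overlapping groups. Among 18 genes of ERK feedback, PLK2 was the 1 that passed, and SPRY1, an inhibitor of receptor tyrosine kinase signalling, was at 38.8, 27.3 and 28.6 CPM in controls and 22.6, 20.2 and 22.6 CPM with 8:2 FTOH (log2 -0.54, adjusted p = 0.511).

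Structural genes of neurons had small negative fold changes. Of 30 cytoskeleton and growth cone genes 28 were negative (49.3% of all genes) and 12 lay wholly below the controls (6.98% of all genes). Their median was -0.15, with 0 called. The median was -0.09, -0.14 and -0.25 in exposed libraries 1 to 3 and -0.11 without the 2 libraries. NEFM, the medium neurofilament chain, was at 176, 182 and 199 CPM in controls and 124, 118 and 129.7 CPM with 8:2 FTOH (log2 -0.59, edgeR adjusted p = 0.116). GAP43, a growth cone protein, was at 304, 302 and 293 CPM in controls and 261, 238 and 236 CPM with 8:2 FTOH (log2 -0.29, adjusted p = 0.28), while MAP1A, a microtubule protein of mature neurons, was at 224, 219 and 230.3 CPM in controls and 231, 333 and 268 CPM with 8:2 FTOH (log2 0.31, adjusted p = 0.483). CHGB, a granin of dense-core vesicles, was at 374, 365 and 351 CPM in controls and 241, 235 and 278 CPM with 8:2 FTOH (log2 -0.53, adjusted p = 0.0709), but CHGA, its companion granin, was at log2 -0.05 (95% interval -0.25 to 0.15).

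Lists for fatty acid oxidation and for the enzymes that could act on the alcohol centred on 0. The 30 tested PPAR targets and fatty acid oxidation genes had a median of -0.02, with 20 negative and 10 positive. At an unadjusted p under 0.05, 2 were higher and 1 was lower (3.55 and 4.28% of all genes). ACADVL and CPT2, enzymes of mitochondrial fatty acid oxidation, were at log2 0.33 (95% interval 0.16 to 0.51) and 0.33 (0.08 to 0.58). The 24 alcohol and aldehyde dehydrogenases and reductases had a median of 0.00, and ADH1B, ADH1C, ADH7, ALDH1A1 and ALDH3A1 were under the count filter. AKR1C2, a steroid and carbonyl reductase, was low at 0.755, 0.377 and 0.666 CPM in controls and 0.906, 1.58 and 2.07 CPM with 8:2 FTOH (log2 1.31, edgeR adjusted p = 0.369), and the near-identical AKR1C1 makes its counts uncertain. Xenobiotic conjugation and P450 enzymes had a median of -0.02, p53 targets of 0.00 and sphingolipid genes of -0.01. With 1 library left out, or without the 2 libraries, the medians of these 5 lists lay between -0.06 and 0.08.

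In 25 of the 45 lists the medians of the 3 exposed libraries differed in sign, with library 3 the lowest in 22 of the 25. Several lists are given here with the libraries their medians depended on. Hypoxia and glycolysis genes had a median of 0.07, with 0.15, 0.18 and -0.09 in exposed libraries 1 to 3 and 0.20 without the 2 libraries. Without control libraries 1 and 3 in turn it was 0.03 and 0.12, and without 8:2 FTOH libraries 2 and 3 0.03 and 0.14. Replication-dependent histones, whose mRNAs lack a poly(A) tail, had a median of -0.17, with 0.13, -0.17 and -0.45 in exposed libraries 1 to 3 and -0.11 without the 2 libraries. It was -0.08, -0.31 and -0.07 without control library 2, 8:2 FTOH library 1 and 8:2 FTOH library 3. Cytosolic ribosomal proteins had -0.07, with 0.10, -0.02 and -0.25 in exposed libraries 1 to 3 and 0.04 without the 2 libraries. That median ran from -0.15 without 8:2 FTOH library 1 to 0.03 without 8:2 FTOH library 3, and was -0.14, 0.00 and -0.02 without control libraries 1 to 3. In each of these lists library 3, the shallowest, had the lowest value. Proteasome subunits had 28 positive members of 32 at a median of 0.08, which was 0.13 without the 2 libraries, 0.13 without control library 2 and 0.12 without 8:2 FTOH library 3. Cell cycle genes had 33 negative members of 38 at -0.10, which was -0.09 without the 2 libraries, -0.05 without control library 2, and -0.18 and -0.07 without 8:2 FTOH libraries 1 and 3. None of the genes in these 5 lists passed.

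**Figure D4:**
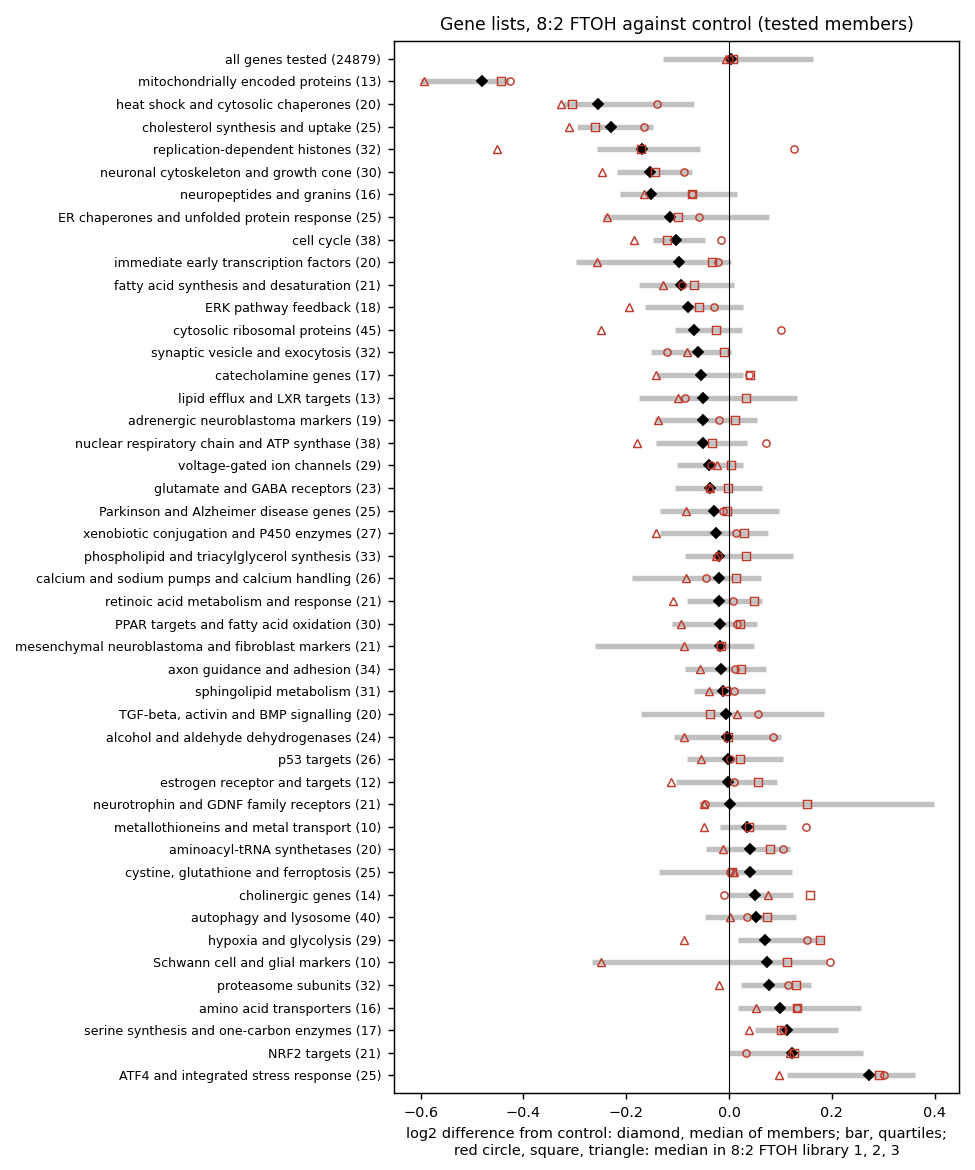
Median log2 difference of 8:2 FTOH from control over the tested members of 45 gene lists and over all genes (diamonds), with the quartiles of the members (bars) and the median in each exposed library against the control mean (red symbols). Mitochondrially encoded proteins lie lowest at -0.48 and the ATF4 list highest at 0.27, and library 3 (triangles) often lies left of the other 2.

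The 8 genes next in p on the lower side, HMGB1P5, MANF, UFC1, NCL, TLL2, BAALC, CHGB and ARPC3, had adjusted p of 0.0584 to 0.0709 in edgeR, and the 8 on the higher side, SLC7A5, NIBAN1, UCHL1, SMO, GPX3, ME1, UBOX5 and ENSG00000286742, of 0.0584 to 0.144. HMGB1P5 is a processed copy of HMGB1, so its counts are uncertain. Among the lower was UFC1, the conjugating enzyme of the UFM1 system, at 36.998, 37.8 and 34.3 CPM in controls and 26.7, 27.04 and 25.3 CPM with 8:2 FTOH (log2 -0.46, edgeR adjusted p = 0.0634). NCL, nucleolin, was at 459, 483 and 453 CPM in controls and 381, 352 and 337 CPM with 8:2 FTOH (log2 -0.38, adjusted p = 0.0635), and ARPC3, a subunit of the actin-nucleating Arp2/3 complex, at 94.6, 97.02 and 92.9 CPM in controls and 78.9, 75.9 and 66.3 CPM with 8:2 FTOH (log2 -0.36, adjusted p = 0.0709). None of these 3 genes' groups overlapped. Among the higher, SMO, the Hedgehog signal transducer, was at 31.2, 34.9 and 33.9 CPM in controls and 44.7, 45.1 and 43.4 CPM with 8:2 FTOH (log2 0.42, adjusted p = 0.0881), and GPX3, a secreted glutathione peroxidase, at 13.4, 17.8 and 13.6 CPM in controls and 18.8, 26.6 and 23.5 CPM with 8:2 FTOH (log2 0.63, adjusted p = 0.092).

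Set against 3 related compounds at the same dose and time, 8:2 FTOH differed in 1 gene from PFOA, in 1 from PFDA and in 0 from 8:2 FTS. Each pair was adjusted over its 24879 genes, not over the 3 pairs, and 0.00402% of genes were called against PFOA and against PFDA. 8:2 FTS has a sulfonic acid in place of the hydroxyl group of 8:2 FTOH, and PFOA and PFDA are carboxylic acids without the spacer. Against 8:2 FTS, 811 genes, 3.26% of those tested, had an unadjusted p under 0.05 in edgeR, and the DESeq2 test called 3. The share at an unadjusted p under 0.05 was 6.52% against PFOA and 3.56% against PFDA.

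SLC7A11 was higher with 8:2 FTOH than with PFOA by 0.91 on the log2 scale (95% interval 0.58 to 1.24, edgeR adjusted p = 0.0372). Its level was 17.5 ± 2.13 CPM with 8:2 FTOH and 9.37 ± 0.589 CPM with PFOA (SD, n = 3), against 6.29 ± 1.82 in controls, and each 8:2 FTOH library lay above every PFOA library. When each library of this pair was dropped in turn, the call held in 1 of 6 fits, the one without 8:2 FTOH library 1, and 0 genes were called against PFOA without the 2 libraries that stood apart. Against PFDA the difference was 0.69 (0.37 to 1.01, adjusted p = 0.283) and against 8:2 FTS 0.46 (0.14 to 0.78, adjusted p = 1), neither past the threshold. The group means were 12.7 ± 1.09 CPM with 8:2 FTS and 10.8 ± 1.17 CPM with PFDA.

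UCHL1, a deubiquitinase abundant in neurons, was higher with 8:2 FTOH than with PFDA by 0.44 (95% interval 0.28 to 0.59, edgeR adjusted p = 0.0277). It was at 452, 527 and 462 CPM in the exposed libraries and 365, 389.7 and 386 CPM in controls, with no overlap, and against control its log2 fold change was 0.34 (adjusted p = 0.085). The other 5 compounds had means of 355 to 381 CPM. The difference was 0.38 against PFOA (0.22 to 0.54, adjusted p = 0.0675) and 0.36 against 8:2 FTS (0.20 to 0.52, adjusted p = 0.266). The call against PFDA held in 2 of 6 fits with 1 library left out, those without 8:2 FTOH library 1 and without PFDA library 3.

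For the genes that fell against control, and for EGR1, which did not pass there, the pairs showed differences of either sign and 0 calls. PLK2 differed from 8:2 FTS by 0.00 (95% interval -0.24 to 0.24) and from PFOA by -0.16 (-0.40 to 0.07). FOS was at 2.67 ± 0.562 CPM with 8:2 FTOH and 1.56 ± 0.315 with 8:2 FTS, a difference of 0.82 (0.17 to 1.47). EGR1 was at 23.3 ± 2.97 CPM with 8:2 FTOH, 14.6 ± 0.590 with 8:2 FTS and 15.4 ± 1.73 with PFOA, differences of 0.66 (0.34 to 0.98, edgeR adjusted p = 0.664) and 0.58 (0.27 to 0.90, adjusted p = 0.351). CHORDC1 differed from PFOA by -0.38 (-0.54 to -0.21, adjusted p = 0.0917).

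**Figure D5:**
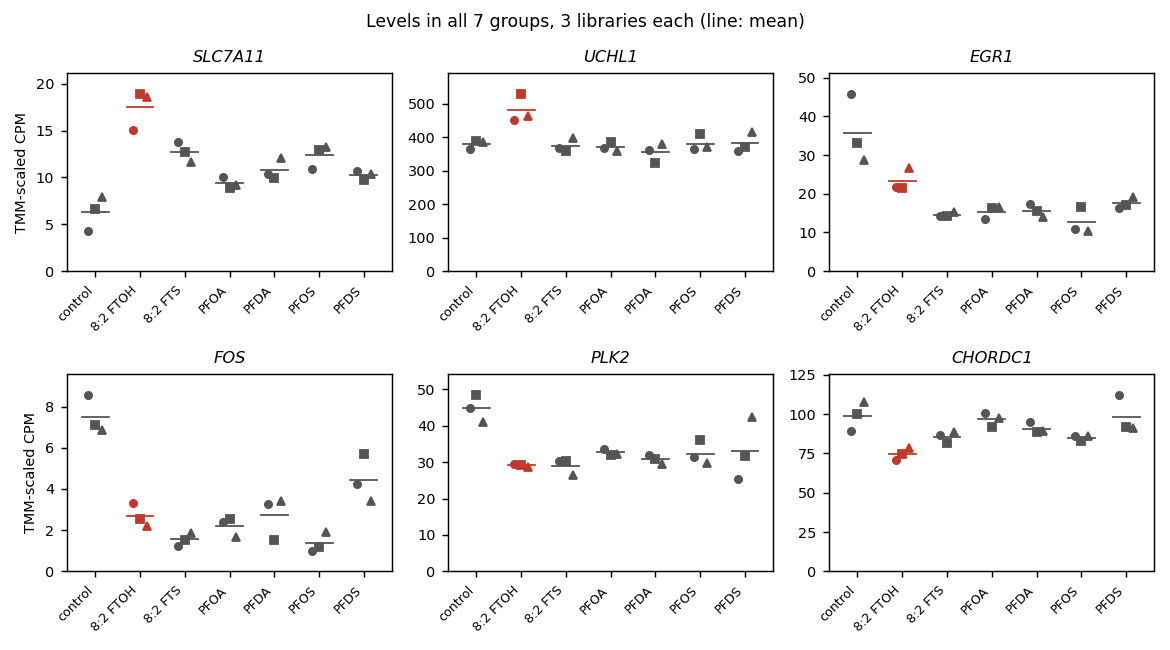
TMM-scaled CPM of 6 genes in the 3 libraries of each of the 7 groups (circle 1, square 2, triangle 3, line at the mean), with 8:2 FTOH in red. For SLC7A11 the 8:2 FTOH libraries lie above those of each other group, and for EGR1 they lie below all controls and above the libraries of each other compound.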

How the data were processed

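Total RNA was depleted of ribosomal RNA and sequenced from 3 libraries per group. HISAT2, SAMtools, featureCounts, DESeq2, FastQC and MultiQC are the tools, and hg38 the build, per the submitters' processing notes. Counting used featureCounts 2.0.1 with no strand option, per the file headers, so genes that overlap another on either strand are uncertain. Among those named, ACADVL, AHSA1, ARPC3, ASNS, CDH11, CPT2, EIF2AK3, ERN1, HSF1, HSPA8, NEFM, PDIA3, SMO, SREBF2, UBOX5 and UFC1 overlap another gene with counts. The deposited table of raw counts was used for every test. The authors' deposited normalized signal (37476 genes, 19 libraries) equalled raw counts divided by 1 factor per library, with 100% of values whole within 0.01, and was not used for tests since it lacks control library 3 and 8:2 FTOH library 3.

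Counts of all 21 libraries (7680024 to 30429746 per library) were filtered with filterByExpr of edgeR 4.0.16 in R 4.3.3, scaled by TMM and fitted with a robust quasi-likelihood model, which lends the spread of all 7 groups to each comparison. P-values were adjusted by Benjamini-Hochberg over 24879 genes at 0.05. The biological coefficient of variation was 0.112. Separate cultures for the libraries of a group are not stated in the labels, and the p-values reflect no more than the spread among these samples, and that spread may be technical. A log2 fold change is 8:2 FTOH minus control, and a median difference of a library is from the control mean with a pseudocount of 0.5 CPM.

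Named genes were those past the threshold, up to 4 of smallest p and the first 4 of each of 45 gene lists, and the 8 next smallest p in each direction with at least 1 CPM. The 5 of smallest p in each direction were taken from those called between compounds. Glial markers at 0, enzymes under the filter, SLC7A11-AS1, ERN1, EIF2AK3 and the genes of the closing section lie partly outside that rule. Members and lists were chosen with earlier results of these data known. Alternatives were DESeq2 1.42.0, other scalings and filters, a minimum fold, no robust dispersion, a replicate block, a fit of 2 groups and leaving out libraries. Some genes that the rule names are not reported here. The procedure was tested on simulated data. Tables and figures used Python 3.11.15, pandas 2.3.3 and matplotlib 3.10.9.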

Additional observations from a re-analysis of the deposited data

Results flagged for a closer look

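A direct test between compounds separated 8:2 FTOH from another exposure for 2 genes, which marks them for a closer look. SLC7A11 was higher with 8:2 FTOH than with PFOA by 0.91 on the log2 scale (edgeR adjusted p = 0.0372), in 3 of 3 libraries. UCHL1 was higher with 8:2 FTOH than with PFDA by 0.44 (edgeR adjusted p = 0.0277), in 3 of 3 libraries. Each is the 1 gene called in its pair, and each call was lost in most fits with a library dropped.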

How the results depend on the processing

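The number of genes called against control was 107 with no filter on low counts (91 lower), 59 in the DESeq2 test (17 higher), 31 when the 2 groups were fitted alone, 1 against a minimum fold of 1.2 and 1 to 32 with 1 library left out. DESeq2 size factors gave 6, library size alone 8, the stricter filter 7, the fit without robust dispersion 8, and leaving out both libraries that the authors' normalized values lack gave 10. All 8 genes were among those called with no filter, by DESeq2 and with the 2 groups alone. Against 8:2 FTS the count was 6 with no filter, 3 by DESeq2, 1 with the 2 groups alone, and 0 in each fit with 1 library left out. Against PFOA it was 23 with no filter, 19 by DESeq2, 14 with the 2 groups alone, 7 with the stricter filter, 3 with library size alone and 2 without robust dispersion. That count was 0 against a minimum fold, 0 without the 2 libraries, and 0 to 13 with 1 library left out. Against PFDA it was 16 with no filter, 3 by DESeq2, 2 without robust dispersion, 0 against a minimum fold, 0 with the 2 groups alone, and 0 to 4 with 1 library left out. The cause of these differences was not tested.

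The replicate number as a block gave 8 genes against control, 0 against 8:2 FTS, 1 against PFOA and 1 against PFDA. Same-numbered 8:2 FTOH and control libraries had correlations of -0.03, 0.06 and 0.15 in their deviations from the group means, over 19795 genes, and not every library correlated best with its own number, so the numbers are not taken to pair samples. Signs turned for genes near 0. SREBF2 was at 0.035 with library size alone, 0.000824 with the stricter filter and 0.073 without both libraries. With 1 library left out, SREBF2 ran from -0.078 to 0.060, ATF4 from -0.034 to 0.144, CHGA from -0.093 to 0.044, HMOX1 from -0.024 to 0.496 and HSF1 from -0.011 to 0.202. List medians moved by no more than the SD of the 3 exposed-library medians in 643 of their alternatives and by more in 47. That SD was wide where the exposed libraries differed, so these counts cannot show that a median was stable. For cytosolic ribosomal proteins it was 0.18, while the median ran from -0.15 to 0.03 with 1 library left out. With 3 libraries a group, and one at 7680024 counts, small differences of genes at a few CPM were not detectable at this depth.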

Other observations

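Further genes are given here as values, and those named in this paragraph were chosen after their values were seen. HSPB8 and BAG3, a small heat shock protein and its co-chaperone that act together in selective autophagy, had positive fold changes in a list of mostly negative chaperones. HSPB8 was at 0.666, 0.503 and 1.05 CPM in control libraries 1 to 3 and 0.906, 2.61 and 1.94 CPM with 8:2 FTOH (log2 1.33, edgeR adjusted p = 0.438). BAG3 was at 2.49, 3.77 and 2.43 CPM in controls and 2.55, 5.33 and 4.27 CPM with 8:2 FTOH (log2 0.51, adjusted p = 0.709), and for both genes the groups overlapped. TH, tyrosine hydroxylase, the first enzyme of catecholamine synthesis, was near the floor at 0.755, 0.545 and 0.476 CPM in controls and 1.24, 1.74 and 1.03 CPM with 8:2 FTOH (log2 1.22, adjusted p = 0.566). MAOB, which degrades amines, was at 39.2, 35.7 and 35.2 CPM in controls and 26.5, 28.8 and 27.7 CPM with 8:2 FTOH (log2 -0.40, adjusted p = 0.312). The catecholamine list, which holds TH and MAOB, had 10 negative and 7 positive members of 17 tested, with 0 called. Its median was -0.05, and -0.06 without the 2 libraries that stood apart. At an unadjusted p under 0.05, 1 member was higher and 3 were lower (3.55 and 4.28% of all genes). SLC7A11-AS1, antisense to SLC7A11, was at 0.844, 0.712 and 1.05 CPM in controls and 1.32, 1.86 and 2.33 CPM with 8:2 FTOH (log2 1.06, adjusted p = 0.438), and reads of the pair cannot be told apart without strand.

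A pair of abundant structured RNAs that are not polyadenylated, also chosen after their values were seen, had wide differences without passing. RN7SL5P, a signal recognition particle RNA pseudogene, was at 171, 1185 and 739.8 CPM in controls and 169, 202 and 77.8 CPM with 8:2 FTOH (log2 -2.21, edgeR adjusted p = 0.692). SNORD3A, the U3 small nucleolar RNA, was at 380.1, 812 and 1408 CPM in controls and 2454, 1628 and 1632 CPM with 8:2 FTOH (log2 1.14, adjusted p = 0.521). Both belong to families of near-identical copies, so their counts are uncertain.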
